A study of Mus musculus with 12 samples.

Results

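A set of 10 genes of follicular and peripheral helper T cells was followed through total RNA and ribosome footprints of CD4+ T cells. They were Pdcd1, Cxcr5, Bcl6, Sostdc1, Sh2d1a, Icos, Il21, Tnfsf8, Maf and Izumo1r, taken by name from a list of helper T cell genes and found by their Ensembl identifiers. All 10 were present among the 45669 rows of the count table.

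CD4+ T cells were purified from lymph nodes of C57BL6 mice at 12 weeks of age by removing other cells with magnetic beads. The mice were homozygous for Rasgrp1 Anaef (called Anaef here) or were WT/WT (called WT). For total RNA there were 4 Anaef libraries, numbered 5 to 8, and 4 WT libraries, numbered 1 to 4. Ribosome-protected fragments (RPF), mRNA pieces covered by a translating ribosome and so spared by nuclease, came from 2 Anaef pools (3B and 4B) and 2 WT pools (1B and 2B) of 2 samples apiece.

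Rasgrp1 encodes a Ras activator (a guanine nucleotide exchange factor) of T cell receptor signalling, and Anaef is a point mutation in it. Because the mutation changes an amino acid, transcript abundance is no check of the labels. Rasgrp1 total RNA was 582 ± 92.9 CPM in Anaef and 503 ± 72.1 CPM in WT (SD, n = 4 each). Its RPF level was 114 ± 13.6 CPM in Anaef and 161 ± 16.4 CPM in WT (SD, n = 2 each), and neither difference passed the test used below. CPM are TMM-scaled counts relative to library size (per 1000000 counts), and are on a separate scale for each assay.

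Follicular helper T cells enter B cell follicles and give B cells the contact and cytokine signals that sustain germinal centres and antibody affinity maturation. The transcription factor Bcl6 specifies them, Cxcr5 leads them to the follicle, and PD-1, ICOS and the adaptor SAP tune their contacts with B cells. Peripheral helper T cells share PD-1 and IL-21 but lack CXCR5, and help B cells outside follicles. In a lymph node these cells are a minority of the CD4+ T cells, which here were analysed in bulk.

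The footprints read out translation, which begins at the start codon, so the sequence around the start codon of each gene is given. Each line runs 5′ to 3′ over 12 bases before and 6 bases after the start codon of 1 coding transcript in the GENCODE annotation of GRCm38, with the start codon in capitals.
Pdcd1: ggggctctgggcATGtgggtc
Cxcr5: agagctgcagctATGaactac
Bcl6: ggcaaacacaacATGgcctcc
Sostdc1: cctccactcatcATGcttcct
Sh2d1a: agtttgctaggcATGgatgca
Icos: ctcctggcagacATGaagccg
Il21: agttctggtggcATGgagagg
Tnfsf8: actatataaagcATGgagcca
Maf: ggaggcaggaggATGgcttca
Izumo1r: gccttgaaggtcATGgcacag

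All 10 windows had A or G 3 bases before the start codon, as did 84.7% of 19492 coding genes. A G directly after the start codon was present in 6 of the 10, Bcl6, Sh2d1a, Il21, Tnfsf8, Maf and Izumo1r, and in 49.4% of the coding genes. Both features stood together in these 6 genes and in 41.5% of the coding genes. An ATG within the 5′ UTR was present in 5 of the 10 genes (Cxcr5, Bcl6, Sostdc1, Tnfsf8 and Maf), against 53.5% of 19892 coding genes with a complete coding sequence and a 3′ UTR. The Tnfsf8 leader of 288 bases held 6 of them.

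The 3′ UTRs had a median of 1260 bases over the 10 genes and of 857 bases over the coding genes. The motif ATTTA, searched on the transcript strand with overlapping matches counted, occurred in the 3′ UTR of 7 of the 10 genes and of 62.9% of the coding genes. Tnfsf8 held 10 copies, Il21 held 9 and Maf held 7, whereas Pdcd1, Cxcr5 and Izumo1r held 0. The 3 genes with most copies also had 3′ UTRs of 2799, 2578 and 4316 bases. A match is a description of the letters only.

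The total RNA libraries held 18580747 to 39467754 counts in Anaef and 15326842 to 40046317 in WT. The RPF libraries held 2868943 to 3464868 counts in Anaef and 4044330 to 7009342 in WT. The 10 genes together took 391 to 445 counts per 1000000 in Anaef total RNA, against 248 to 457 in WT total RNA. In RPF they took 653 and 712 counts per 1000000 in the Anaef pools, against 475 and 478 in the WT pools. Among the total RNA libraries WT replicate 3, the shallowest, and Anaef replicate 6 stood apart on the first 2 principal components. CD4 T cell markers (8 genes, including Cd4 and Cd3e) summed to 3299 to 4868 CPM in Anaef total RNA and 3105 to 3328 CPM in WT total RNA. Over all genes, edgeR's quasi-likelihood test with Benjamini-Hochberg adjustment at 0.05 called 4 of 17876 genes in total RNA (0.0224%), all lower in Anaef. It called 0 of 9710 genes in RPF (0%), where 1151 had an unadjusted p under 0.05, DESeq2 called 207 and limma-voom called 0.

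The first question was whether the genes differed in level between the genotypes. In total RNA 9 of the 10 had a higher fitted level in Anaef, against 50.7% of all genes tested, and none passed the adjusted threshold. Their median log2 fold change, Anaef over WT, was 0.49, against 0.0063 over all genes. An unadjusted p under 0.05 with a higher level was reached by 3 of the 10, Sostdc1, Tnfsf8 and Maf, and by 2.73% of all genes. By DESeq2 and limma-voom, too, 0 of the 10 passed. The groups did not overlap for 1 gene, Tnfsf8, against 1.58% of all genes with Anaef higher. Without WT replicate 3 it was again Tnfsf8 alone, against 3.62% of all genes. The 10 genes were chosen with earlier results of these data known. Such shares, here and for RPF below, are therefore descriptions and no independent support.

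In RPF all 10 genes had a higher fitted level in Anaef, against 50.8% of the genes tested, with a median log2 fold change of 0.55 against 0.0065 over all genes. Again none passed by edgeR, the smallest adjusted p being 0.344, and none by limma-voom. DESeq2 called Pdcd1 (adjusted p = 0.00527), Sh2d1a (0.0200) and Cxcr5 (0.0410), and edgeR without its filter on low counts called Pdcd1 (0.00154), Cxcr5 (0.0335) and Sostdc1 (0.000137). Pdcd1, Sostdc1, Sh2d1a, Cxcr5, Bcl6 and Maf had an unadjusted p under 0.05, 6 of 10 against 4.92% of all genes with a higher level. Both Anaef pools were above both WT pools in 7 of 10 genes, against 22.3% of all genes. Nothing in the labels says that libraries came from separate animals, and p-values therefore reflect the spread among these samples, which may be technical. In bulk cells, more cells of a type and more RNA per cell cannot be told apart.

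**Figure D1:**
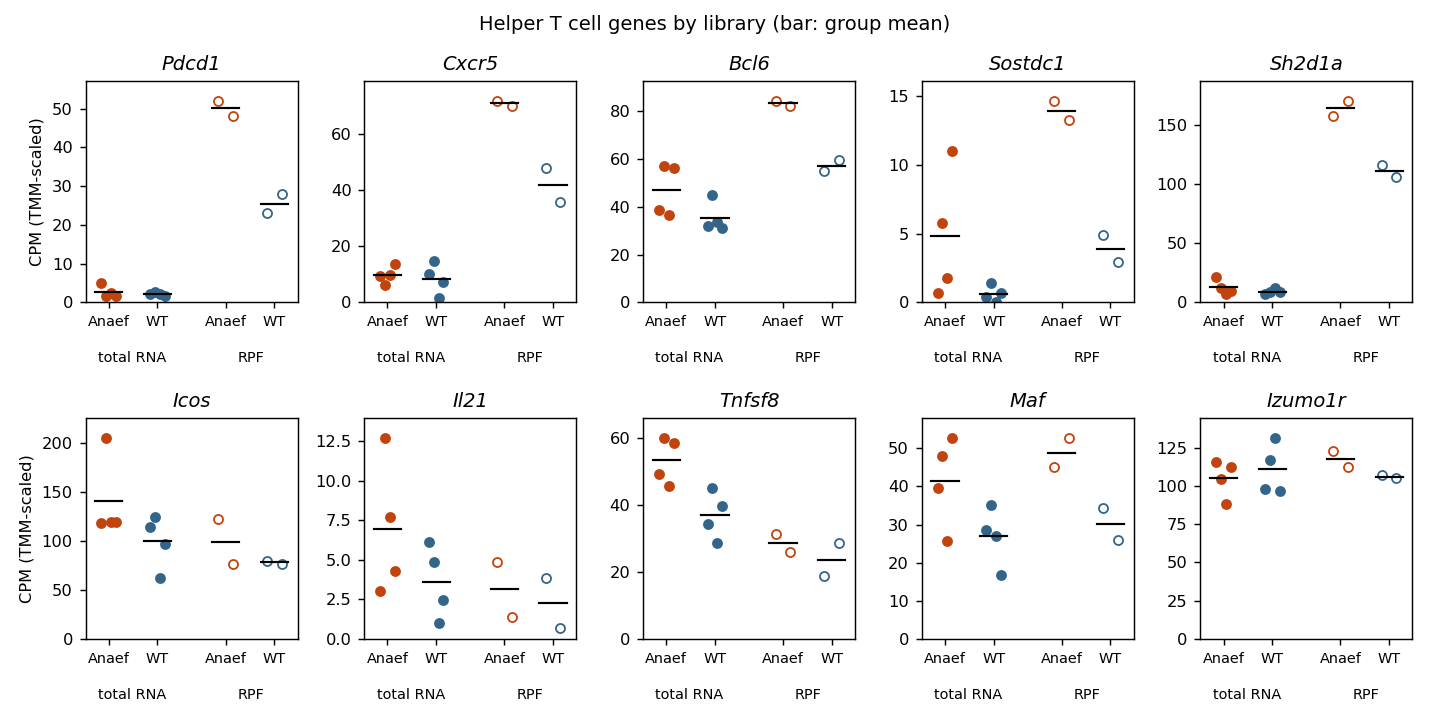
CPM of each gene in each library (y axis, from 0), with Anaef to the left of WT, total RNA as filled points and RPF as open points, and a bar at each group mean. The open Anaef points sit above the open WT points in 7 of 10 genes, while the filled points overlap in all but Tnfsf8.

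Pdcd1 (ENSMUSG00000026285, chr1:94038305-94052553, minus strand; positions here and below are those of GRCm38) encodes PD-1, the inhibitory receptor for PD-L1 and PD-L2. Its RPF level was 51.9 and 48.1 CPM in Anaef 3B and 4B, against 23.0 and 27.9 CPM in WT 1B and 2B. Both Anaef pools lay well above both WT pools, and log2(Anaef/WT) by edgeR was 0.98 (SE 0.19, adjusted p = 0.344). Its total RNA was 5.07, 1.72, 2.47 and 1.71 CPM in Anaef replicates 5 to 8, against 2.27, 2.63, 2.14 and 1.72 CPM in WT replicates 1 to 4. Only Anaef replicate 5 stood above WT, the groups overlapped, and the log2 fold change was 0.32 (SE 0.45). Without Anaef replicate 5 it was -0.16.

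Cxcr5 (ENSMUSG00000047880, chr9:44511787-44561877, minus strand) encodes the receptor for the follicular chemokine CXCL13. RPF were 71.7 and 70.1 CPM in Anaef 3B and 4B, against 48.0 and 35.7 CPM in WT 1B and 2B. The pools did not overlap, and the log2 fold change by edgeR was 0.76 (SE 0.20, adjusted p = 0.344). Its total RNA was 9.24, 6.16, 9.81 and 13.8 CPM in Anaef replicates 5 to 8, against 9.99, 14.8, 1.66 and 7.29 CPM in WT replicates 1 to 4. The highest and the lowest library were both WT, the lowest being replicate 3 with 21 reads. The log2 fold change in total RNA was 0.20 (SE 0.52) and was -0.13 without WT replicate 3.

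Icos (ENSMUSG00000026009, chr1:60977927-61000320, plus strand) encodes the costimulatory receptor that binds ICOS ligand on B cells. Total RNA of this gene was 118, 205, 119 and 119 CPM in Anaef replicates 5 to 8, against 114, 124, 62.7 and 97.4 CPM in WT replicates 1 to 4. Anaef replicate 6 lay far above the other 3 Anaef libraries, and WT replicate 3 below the other 3 WT libraries. The log2 fold change was 0.49 (SE 0.25, adjusted p = 0.897, edgeR) and was 0.10 with both of these libraries left out. RPF were 122 and 76.1 CPM in Anaef 3B and 4B, against 80.0 and 76.5 CPM in WT 1B and 2B, so that Anaef 4B was at the level of WT. The RPF log2 fold change was 0.34 (SE 0.24, adjusted p = 0.604, edgeR).

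Izumo1r (ENSMUSG00000031933, chr9:14885814-14903949, minus strand) encodes folate receptor 4, a surface protein of regulatory and anergic T cells. It was the only gene of the 10 with a lower fitted total RNA level in Anaef, and the difference was small. Total RNA was 116, 105, 88.4 and 112 CPM in Anaef replicates 5 to 8, against 98.3, 117, 131 and 96.7 CPM in WT replicates 1 to 4. The libraries overlapped throughout, with a log2 fold change of -0.07 (SE 0.15). RPF were 123 and 112 CPM in Anaef 3B and 4B, against 107 and 105 CPM in WT 1B and 2B. The pools did not overlap but lay close together, and log2(Anaef/WT) by edgeR was 0.15 (SE 0.15, adjusted p = 0.716).

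Sh2d1a (ENSMUSG00000005696, chrX:42502453-42529330, plus strand) encodes SAP, the adaptor that couples SLAM-family receptors to the kinase Fyn and that follicular helper cells need for lasting contact with B cells. Its RPF level was 158 and 171 CPM in Anaef 3B and 4B, against 116 and 106 CPM in WT 1B and 2B. Both Anaef pools were higher, and log2(Anaef/WT) by edgeR was 0.56 (SE 0.15, adjusted p = 0.344). In total RNA the level was 21.6, 12.01, 7.15 and 9.89 CPM in Anaef replicates 5 to 8, against 6.72, 8.47, 12.3 and 8.89 CPM in WT replicates 1 to 4. Anaef replicate 5 was the highest library, the others overlapped with WT, and the log2 fold change was 0.48 (SE 0.36), or 0.09 without Anaef replicate 5.

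Il21 (ENSMUSG00000027718, chr3:37222759-37232636, minus strand) encodes the cytokine through which helper cells drive B cell proliferation and plasma cell differentiation. Total RNA stood at 3.01, 12.7, 7.68 and 4.31 CPM in Anaef replicates 5 to 8, against 6.13, 4.88, 1.03 and 2.44 CPM in WT replicates 1 to 4. The libraries overlapped, with Anaef replicate 6 highest and WT replicate 3 lowest, and the log2 fold change was 0.92 (SE 0.58). Leaving out both gave 0.16. Its footprints were few, 17 and 4 reads in Anaef 3B and 4B, against 26 and 3 reads in WT 1B and 2B, so that no difference was detectable at this depth (0.38, SE 0.82).

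Sostdc1 (ENSMUSG00000036169, chr12:36314139-36318452, plus strand) encodes a secreted antagonist of BMP and Wnt signalling that follicular helper cells make. In total RNA it was found at 0.687, 5.78, 1.79 and 11.03 CPM in Anaef replicates 5 to 8, against 0.373, 1.37, 0 and 0.681 CPM in WT replicates 1 to 4. Anaef replicates 6, 7 and 8 were above each WT library, and Anaef replicate 5 was not; the 0 reads in WT replicate 3 allow up to 0.237 CPM at 3 reads, for counting error only. The log2 fold change was 2.92 (SE 1.00, adjusted p = 0.836, edgeR), the largest of the 10, and ranged from 2.12 to 3.68 when 1 library was left out. RPF were 14.6 and 13.3 CPM in Anaef 3B and 4B, against 4.87 and 2.91 CPM in WT 1B and 2B, from 51, 38, 33 and 12 reads in that order. The pools did not overlap, and the log2 fold change by edgeR was 1.79 (SE 0.36, adjusted p = 0.344).

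Tnfsf8 (ENSMUSG00000028362, chr4:63831308-63861347, minus strand) encodes CD30 ligand, a membrane protein of activated T cells. Total RNA levels were 49.5, 60.2, 45.8 and 58.5 CPM in Anaef replicates 5 to 8, against 34.3, 45.1, 28.9 and 39.8 CPM in WT replicates 1 to 4. The lowest Anaef library was just above the highest WT library, and the log2 fold change by edgeR was 0.53 (SE 0.18, adjusted p = 0.836). RPF were 31.5 and 26.2 CPM in Anaef 3B and 4B, against 18.8 and 28.7 CPM in WT 1B and 2B. The pools overlapped, with a log2 fold change of 0.30 (SE 0.26), which was 0.0017 without WT 1B and 0.62 without WT 2B.

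Bcl6 (ENSMUSG00000022508, chr16:23965052-23988852, minus strand) encodes the repressor that specifies follicular helper cells. In total RNA it measured 38.5, 57.0, 36.4 and 56.4 CPM in Anaef replicates 5 to 8, against 32.1, 44.9, 33.7 and 31.1 CPM in WT replicates 1 to 4. The Anaef libraries formed a higher and a lower pair, and the lower pair overlapped WT. The log2 fold change was 0.41 (SE 0.21, adjusted p = 0.898, edgeR). RPF were 84.3 and 82.3 CPM in Anaef 3B and 4B, against 55.1 and 59.5 CPM in WT 1B and 2B. Both Anaef pools were higher, and log2(Anaef/WT) by edgeR was 0.54 (SE 0.16, adjusted p = 0.344).

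Maf (ENSMUSG00000055435, chr8:115682942-115707794, minus strand) encodes c-Maf, a transcription factor that drives Il21 and Il4 in helper cells. Levels in total RNA were 39.5, 48.02, 25.6 and 52.7 CPM in Anaef replicates 5 to 8, against 28.6, 35.04, 27.1 and 16.8 CPM in WT replicates 1 to 4. Anaef replicates 5, 6 and 8 were above all WT libraries, and Anaef replicate 7 was among them. The log2 fold change was 0.62 (SE 0.28, adjusted p = 0.874, edgeR). RPF were 45.02 and 52.7 CPM in Anaef 3B and 4B, against 34.4 and 26.0 CPM in WT 1B and 2B, without overlap. The RPF log2 fold change was 0.68 (SE 0.21, adjusted p = 0.344, edgeR).

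**Figure D2:**
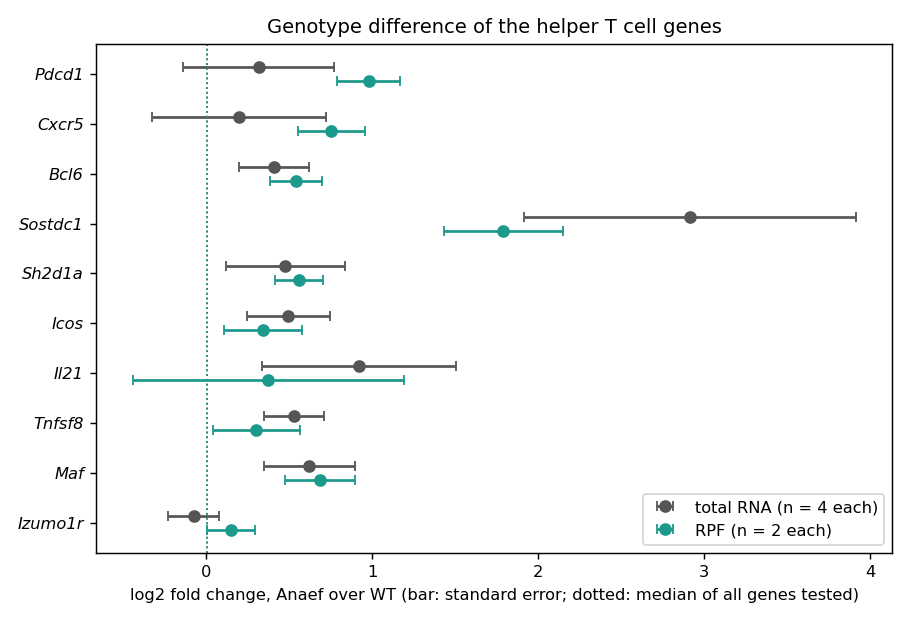
Log2 fold change of each gene, Anaef over WT (x axis), with its standard error, in total RNA (n = 4 each) and RPF (n = 2 each), and dotted lines at the medians of all genes tested. All 10 RPF points and 9 of the 10 total RNA points lie right of 0, and Sostdc1 lies farthest right in both assays.

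The libraries that stood apart also set the extremes of these genes. WT replicate 3 was the lowest of the 8 total RNA libraries in 5 of the 10 genes, and Anaef replicate 6 was the highest in 4. Without both, the median log2 fold change of the 10 genes in total RNA was 0.34. The differences from the WT mean, taken as log2(CPM + 0.5), had a median over the 10 genes of 0.36, 0.70, 0.23 and 0.55 in Anaef replicates 5 to 8. The same medians were -0.02, 0.36, -0.19 and -0.08 in WT replicates 1 to 4. WT replicate 2 thus lay about as high as Anaef replicate 5 and above Anaef replicate 7. In RPF the medians were 0.61 and 0.57 in Anaef 3B and 4B, and 0.05 and -0.05 in WT 1B and 2B.

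**Figure D3:**
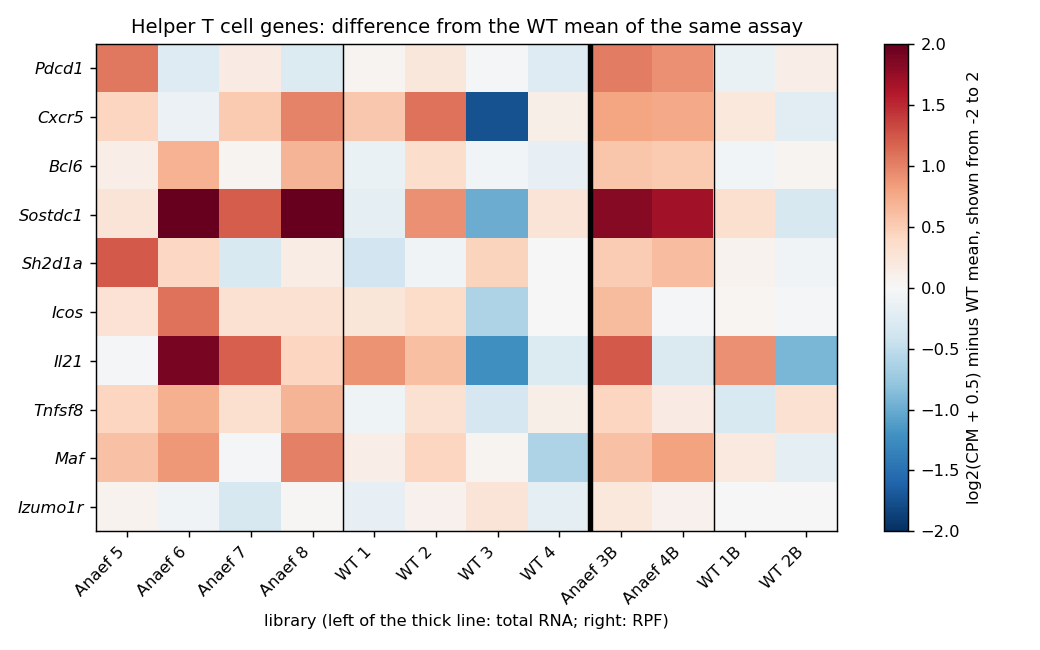
Difference of each gene from the WT mean of its assay, as log2(CPM + 0.5), by library, with Anaef left of WT and total RNA left of RPF. Anaef replicates 5 to 8 are mostly red, WT replicate 2 is red in 9 of 10 genes, and WT replicate 3 is the bluest column for Cxcr5 and Il21.

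Markers of other cells were also at unlike levels. The 8 regulatory T cell markers, a cell type that also carries ICOS, PD-1 and folate receptor 4, summed to 221 and 243 CPM in Anaef RPF, against 155 and 158 CPM in WT RPF. In total RNA the sum was 102 to 158 CPM in Anaef and 93.5 to 118 CPM in WT. The RPF log2 fold change was 0.82 for Ikzf2 (SE 0.20), 0.60 for Tnfrsf18 (SE 0.18), 0.45 for Ctla4 (SE 0.19) and 0.25 for Foxp3 (SE 0.29). Lrrc32 had 0 reads in WT replicate 3, and the other 7 markers were detected in each library. All 6 tested markers had a higher fitted RPF level, 4 with an unadjusted p under 0.05 (4.92% of all genes), and edgeR called 0. Their median RPF log2 fold change was 0.53, close to the 0.55 of the helper T cell genes. In total RNA all 8 markers had a higher fitted level, 1 with an unadjusted p under 0.05 (2.73% of all genes), and edgeR called 0. The median there was 0.23, beside 0.49 for the helper T cell genes. The part of these cells in the result was not tested.

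B cells also express Cxcr5 and Bcl6, and all their tested markers had a lower fitted level in Anaef (9 of 9 in total RNA and 5 of 5 in RPF, 0 called by edgeR, with 4 at an unadjusted p under 0.05 in each assay). Over all genes, 516 of 17876 in total RNA and 673 of 9710 in RPF were lower at an unadjusted p under 0.05 by edgeR. The 10 B cell markers summed to 22.4 and 40.1 CPM in Anaef RPF, against 50.7 and 92.3 CPM in WT RPF. In total RNA they summed to 11.7 to 35.0 CPM in Anaef and 33.9 to 67.5 CPM in WT. Blk, a kinase of B cells, had 0 reads in Anaef replicates 5 and 6. Mzb1 and Sdc1, made by plasma cells, had 0 reads in Anaef replicates 5 and 6, and Sdc1 in WT replicate 4. The 7 plasma cell markers summed to 408 to 806 CPM in Anaef total RNA and 1322 to 6111 CPM in WT total RNA, with 6 of 6 tested lower and 1 called. In RPF these markers summed to 2969 and 8868 CPM in Anaef, against 13142 and 33474 CPM in WT. All 7 were tested in RPF and lower, 6 with an unadjusted p under 0.05, and edgeR called 0. The part of B cells and plasma cells in the levels of Cxcr5 and Bcl6 was not tested.

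The 6 myeloid and dendritic markers summed to 8.88 to 14.2 CPM in Anaef total RNA and 18.1 to 22.04 CPM in WT total RNA, without overlap. All 4 tested had a lower fitted level, 2 with an unadjusted p under 0.05, and Cd14 had 0 reads in all libraries. In RPF the myeloid and dendritic sums overlapped, at 17.8 and 36.6 CPM in Anaef and 30.3 and 45.6 CPM in WT. The 6 CD8 and NK cell markers summed to 8.40 to 25.7 CPM in Anaef total RNA and 17.8 to 23.5 CPM in WT total RNA. Of the 8 CD4 T cell markers, 7 had a higher fitted total RNA level in Anaef, 2 with an unadjusted p under 0.05, at a median log2 fold change of 0.31 beside the 0.49 of the helper T cell genes. In RPF 4 of the 8 were higher, at a median of 0.08 beside 0.55. The smallest adjusted p by edgeR in total RNA was 0.840 over the myeloid, 0.912 over the CD8 and NK and 0.871 over the CD4 markers, and their part in the results was not tested.

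The second question was whether footprints changed beyond total RNA, tested as a genotype by assay interaction in 1 model of all 12 libraries. None of the 10 genes passed, and none had an unadjusted p under 0.05 (all genes, 1.59% with a higher and 1.76% with a lower value). Over all 19031 genes edgeR called 0 (0%), with 636 at an unadjusted p under 0.05, DESeq2 called 10 and limma-voom called 0. The fitted differences were above 0 in 6 of the 10 genes, against 51% of all genes, with a median of 0.06 against 0.014. Pdcd1 had the highest value, 0.66 (SE 0.58), followed by Cxcr5 at 0.54 (SE 0.80) and Izumo1r at 0.22 (SE 0.26). Bcl6, Sh2d1a and Maf lay at 0.12, 0.08 and 0.05. Icos was at -0.17, Tnfsf8 at -0.25, Il21 at -0.52 and Sostdc1 at -1.10 (SE 1.47), and each adjusted p was 1.00 by edgeR. Single libraries moved these values: Cxcr5 was at 0.13 without WT replicate 2 and 0.85 without WT replicate 3, and Pdcd1 at 0.47 without Anaef replicate 6 and 1.12 without Anaef replicate 5. Sostdc1 was at -1.86 without WT replicate 2 and -0.29 without Anaef replicate 8, and Izumo1r at 0.097 without WT replicate 3. The standard errors were 0.26 to 1.47. Over 19031 genes a difference must be several times its standard error to pass, so smaller changes were not detectable with these libraries.

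The genes differed in how many footprints they had per total RNA within a genotype. The kits of the 2 assays differ, so the assay and the library chemistry cannot be told apart, and each gene is set against the median of all genes. On log2 CPM the RPF to total RNA ratio had a median of -0.22 over the 10 genes in Anaef, against -1.79 over 18032 genes, and of -0.29 in WT, against -1.62 over 17775 genes. In Anaef 3 of the 10 genes were called higher in RPF (16.4% of all genes) and 3 lower (50.8%); in WT 2 were called higher (19.6%) and 3 lower (54.4%). Those called in either direction were 67.1% of all genes in Anaef and 74% in WT. These medians and shares include genes without a coding transcript, whereas all 10 genes are coding. A coding length was known for 12019 of the 18032 genes in Anaef and 11907 of the 17775 in WT. The ratio against coding genes only is given below.

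Sh2d1a and Pdcd1 had the most footprints for their RNA. Sh2d1a was higher in RPF by a log2 ratio of 2.95 in Anaef (SE 0.39, adjusted p = 0.000288) and 2.90 in WT (SE 0.26, adjusted p = 3.69e-05), by edgeR. Pdcd1 was higher by 3.45 in Anaef (SE 0.48, adjusted p = 0.000378) and 2.81 in WT (SE 0.27, adjusted p = 6.14e-05), by edgeR. Cxcr5 was higher by 2.11 in Anaef (SE 0.33, adjusted p = 0.000748, edgeR), while in WT it was at 1.58 (SE 0.63, adjusted p = 0.05002, just above the threshold) and passed without WT replicate 2 (1.98) or WT replicate 3 (1.26). Whether the ratio of Cxcr5 differs between the genotypes is the interaction above, which did not pass.

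Tnfsf8, Icos and Izumo1r were lower in RPF in both genotypes. The log2 ratio of Tnfsf8 was -1.64 in Anaef (SE 0.24, adjusted p = 0.000539) and -1.37 in WT (SE 0.27, adjusted p = 0.00249), by edgeR. Icos was at -1.25 in Anaef (SE 0.33, adjusted p = 0.00960) and -1.06 in WT (SE 0.28, adjusted p = 0.00924), by edgeR. Izumo1r was at -0.59 in Anaef (SE 0.19, adjusted p = 0.0248) and -0.78 in WT (SE 0.19, adjusted p = 0.00697), by edgeR. All 3 lay above the all-gene median of their genotype, which includes genes without a coding transcript. Per base and against coding genes only, Izumo1r lay below the median, as given below. The calls of the last 2 rest on few pools. Icos, at -0.94 without Anaef 4B, -1.10 without WT 1B and -1.03 without WT 2B, and Izumo1r, at -0.67 without Anaef 3B, -0.52 without Anaef 4B and -0.78 without WT 2B, then no longer passed. Sostdc1, Bcl6, Il21 and Maf passed in neither genotype, except that Sostdc1 did in WT without replicate 2 (2.65), Maf in WT without replicate 4 (-0.73) and in Anaef without replicate 7 (-0.68), and Il21 in Anaef without replicate 5 (-2.13).

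Footprints come from coding sequence and total RNA from the whole transcript, so the ratio was also taken per base, RPF per coding base over total RNA per transcript base. On this log2 scale the median of all coding genes was 0.58 in Anaef and 0.69 in WT. Sh2d1a was at 4.64 in Anaef and 4.59 in WT, above 96.9% and 97.0% of the coding genes. Pdcd1 was at 4.60 in Anaef and 3.97 in WT, above 96.9% and 95.4%. Cxcr5 was at 3.45 and 2.92, above 92.2% and 88.7%, in Anaef and WT. Sostdc1 was at 2.30 in Anaef (SE 0.91) and 3.43 in WT (SE 1.00), above 80.6% and 92.5%. In WT it thus lay above Cxcr5, though with a large standard error. Izumo1r, at 0.22 in Anaef and 0.03 in WT, was the lowest of the 10 in both genotypes, above 43.6% and 38.1% of the coding genes. Bcl6 lay near the middle at 0.80 in Anaef and 0.71 in WT, above 54.4% and 50.4%.

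**Figure D4:**
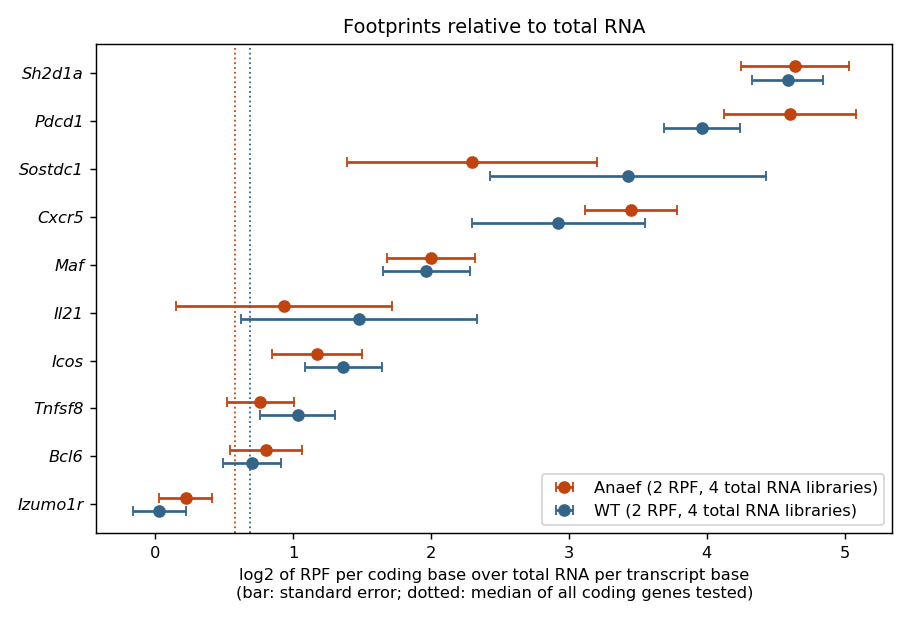
Log2 of RPF per coding base over total RNA per transcript base (x axis) for each gene, with its standard error, in Anaef and WT, and dotted lines at the medians of all coding genes. Sh2d1a and Pdcd1 stand at or above 3.97 in both genotypes, and Izumo1r lies below both dotted lines.

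Per kb of transcript, Izumo1r had the most total RNA of the 10, 81.5 CPM in Anaef and 85.9 CPM in WT. Icos followed at 43.3 CPM per kb in Anaef and 30.7 in WT, and did not overlap its neighbours in the order. In Anaef the order then ran Tnfsf8, Bcl6, Sh2d1a, Maf, Cxcr5, Sostdc1, Il21 and Pdcd1, each overlapping the next over the libraries. In WT it ran Bcl6, Tnfsf8, Sh2d1a, Maf, Cxcr5, Il21 and Pdcd1, each overlapping the next, with Sostdc1 last at 0.34 CPM per kb, clear of Pdcd1 but overlapping Il21 and Cxcr5.

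Per kb of coding sequence the order of footprints was different. Sh2d1a had the highest RPF level, 432 CPM per kb in Anaef and 292 in WT, apart from all others in both genotypes. Icos (164 CPM per kb) and Izumo1r (160) came next in Anaef and overlapped, whereas in WT Izumo1r (144) was above Icos (130) without overlap. Sostdc1 and Il21 were the lowest in both, with Sostdc1 at 22.4 CPM per kb in Anaef and 6.27 in WT, and Il21 at 7.11 in Anaef and 5.18 in WT.

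Among 20 other helper T cell genes, 18 were tested in total RNA, 16 of them with a higher fitted level in Anaef and a median log2 fold change of 0.19. None passed by edgeR, and 4 had an unadjusted p under 0.05 with a higher level, against 2.73% of all genes. The 4 smallest p were those of Tox at 0.58 (SE 0.14), a transcription factor of helper and exhausted T cells, Pou2af1 at -1.38 (SE 0.37), a B cell coactivator, Tcf7 at 0.41 (SE 0.12) and Cd40lg at 0.51 (SE 0.17), the ligand that licenses B cells. DESeq2 called Tox (adjusted p = 0.00931) and Pou2af1 (0.0338) in total RNA. In RPF 18 were tested, 11 with a higher fitted level, a median of 0.26 and none called by edgeR. At an unadjusted p under 0.05, 5 were higher, against 4.92% of all genes, and 4 were lower, against 673 of 9710 genes. The 4 genes named next had the smallest p. Tox2, a relative of Tox, was at 1.36 (SE 0.30), while Lef1 was at -0.53 (SE 0.12), Tcf7 at -0.53 (SE 0.14) and Il6ra, the IL-6 receptor, at -0.49 (SE 0.14). In RPF DESeq2 called Lef1 (adjusted p = 0.000365), Tcf7 (0.00471) and Il6ra (0.0256), and edgeR without its filter called Tox2 (0.00582), Lef1 (0.00918) and Tcf7 (0.0110). Tcf7, a factor of naive and helper T cells, thus had opposite fitted signs in the 2 assays, and its interaction was -0.95 (SE 0.19, adjusted p = 0.838, edgeR), which DESeq2 called (-0.91, adjusted p = 0.00711). The other interactions with the smallest p were Lef1 at -0.73, Il6st at -0.75 and Il6ra at -0.62.

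Partners of the 10 genes, as listed here, are their ligands and receptors, receptors of the SLAM family and signalling proteins. Not every listed SLAM-family receptor need act through SAP. Of 16 listed, 10 were tested in total RNA, 7 with a higher fitted level, a median of 0.12 and none called by edgeR. The smallest p were those of Ptpn11 at 0.32, Slamf1 at 0.32, Slamf7 at -0.80 and Il21r, the receptor of IL-21, at 0.17. In RPF 10 were tested and 4 had a higher fitted level. Fyn, the kinase bound by SAP, was at -0.61 (SE 0.14), Slamf7 at -1.67 (SE 0.51), Pik3r1, a subunit of the kinase downstream of ICOS, at -0.45 (SE 0.17) and Ptpn11, the phosphatase recruited by PD-1, at -0.31 (SE 0.19). None passed by edgeR, while DESeq2 called Fyn (adjusted p = 0.00333), edgeR without its filter called Fyn (0.0342) and Slamf7 (1.92e-08), and Slamf7 also passed without Anaef 3B (-2.35, adjusted p = 0.0306). The interaction was -0.69 for Fyn, -0.67 for Pik3r1 and -0.65 for Ptpn11, and it was 3.35 (SE 1.90) for Pdcd1lg2 (PD-L2), a gene with 11 RPF and 16 total RNA reads over the Anaef libraries and 6 RPF and 55 total RNA reads over the WT libraries.

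Of 13 genes that oppose follicular helper cells or are reduced in them, 13 were tested in total RNA, 5 with a higher fitted level and none called by edgeR. Foxo1 was at 0.39 (SE 0.14), Il7r at -0.24, Gpr183 at 0.37 and Prdm1, the antagonist of Bcl6, at -0.49 (SE 0.47). In RPF 12 were tested, 5 with a higher fitted level. The IL-7 receptor gene Il7r was at -0.53 (SE 0.15), Prdm1 at -1.08 (SE 0.36) and Gpr183 at 0.22 (SE 0.13). None passed by edgeR, while Il7r was called by DESeq2 (adjusted p = 0.0118) and by edgeR without its filter (0.0188). Plasma cells express Prdm1 as well, and their markers were lower in Anaef, as given above. In the interaction Foxo1 was at -0.58, Il7r at -0.31 and Ccr7 at 0.23, and none passed.

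Some of the genes share their place with others, and no source used here gives the strand setting of the counting. Cxcr5 lies across from Bcl9l, Bcl6 from Gm37419, Sh2d1a from Tenm1, Il21 from Gm12534 and Maf from Gm15655 on the other strand, and Icos overlaps Gm37039 on its own strand. The counts of these 6 genes are uncertain to that extent.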

How the data were processed

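Per the labels' protocols, total RNA was drawn from part of each cell sample on oligo-dT beads, and RPF came from pools of 2 samples after 1 minute of cycloheximide, nuclease digestion and a sucrose cushion, with a different library kit. The authors deposited raw read counts per gene, and the file header marks the RPF columns as masked without saying what the mask covers. TopHat 1.4.1, Bowtie 0.2.17 and GRCm38 are named in the submitters' processing notes. No source used here gives the tool, annotation or strand setting of the counting. Of 45669 rows, 44509 matched a GENCODE gene and 263 joined several identifiers, Il2rg among them, which is not analysed here.

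The main test was that of edgeR 4.0.16, run in R 4.3.3 (TMM scaling, filterByExpr with its minimum count of 10, quasi-likelihood F test, Benjamini-Hochberg over all genes tested, called at 0.05). Total RNA used 8 libraries, RPF 4, each ratio 6 and the interaction 12, with standard errors derived from the F statistic. All 10 genes passed the filter in each fit. Alternatives were DESeq2 1.42.0, limma 3.58.1 (voom), RLE factors, other filters, and leaving out libraries. The code was tested on simulated data. Only genes with high expected counts in each library were changed there, at a fixed spread, so low genes such as Il21 and Sostdc1 were not covered. Gene models are GENCODE for GRCm38, and counting error limits low genes. The members, lists and the rule for named genes (all members, Rasgrp1, and up to 4 of each list with the smallest p) were chosen with earlier results of these data known. A few of the genes so chosen are not reported here.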

Additional observations from a re-analysis of the deposited data

Results flagged for a closer look

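In 3 of 64 groups of 4 total RNA libraries, over the genes named, 1 library lay far from the other 3, and chance flags about 1 in 20 such groups. Icos was at 205 CPM in Anaef replicate 6, against 118 to 119 CPM in the other Anaef libraries. Rasgrp1 was at 610 CPM in WT replicate 3, against 453 to 479 CPM in the other WT libraries. Il21r was at 249 CPM in WT replicate 3, against 175 to 183 CPM in the other WT libraries. Both libraries also stood apart over all genes.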

How the results depend on the processing

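No member passed in total RNA or in the interaction under any alternative. In RPF DESeq2 called Pdcd1 (adjusted p = 0.00527), Cxcr5 (0.0410) and Sh2d1a (0.0200), and edgeR without the filter called Pdcd1 (0.00154), Cxcr5 (0.0335) and Sostdc1 (0.000137); the cause was not tested. The members' median kept its sign in total RNA (0.34 to 0.62) and RPF (0.53 to 0.72), and ranged from -0.13 to 0.16 in the interaction, where DESeq2 and limma-voom moved the median of all genes to 0.32 and 0.36. Called genes in total RNA were 120 by DESeq2 (29 higher, 91 lower), 2 by limma-voom, 0 without mitochondrial, immunoglobulin and T cell receptor genes, 2 without both WT replicate 3 and Anaef replicate 6 (chosen after seeing the data), and 0 to 3 with 1 library left out. In RPF they were 514 without the filter, 207 by DESeq2 (72 higher, 135 lower), 6 without those gene classes, and 0 to 211 with 1 library left out, 211 without Anaef 3B, 14 without Anaef 4B and 1 without WT 2B. In the interaction they were 10 by DESeq2 and 0 to 1 with 1 library left out.

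Signs turned as follows with 1 library left out. In total RNA Cxcr5 ranged from -0.13 to 0.61, Pdcd1 from -0.16 to 0.49 and Izumo1r from -0.13 to 0.017, and Izumo1r was 0.029 without both libraries. In RPF Il21 ranged from -0.81 to 2.08 and Icos from -0.042 to 0.64. In the interaction the ranges were -0.15 to 0.25 for Maf, -0.012 to 0.22 for Bcl6, -0.12 to 0.45 for Sh2d1a, -0.57 to 0.11 for Icos, -1.71 to 1.15 for Il21 and -0.56 to 0.064 for Tnfsf8. Without both libraries Sh2d1a was -0.15, Icos 0.22 and Il21 0.22. The RPF to RNA ratio of Bcl6 ranged from -0.029 to 0.18 in Anaef and from -0.10 to 0.093 in WT, and in WT was 0.045 with RLE factors and 0.019 with a mean of at least 50 counts. In WT the ratio of Cxcr5 passed with RLE factors, without the filter and with that mean, and in Anaef that of Izumo1r (-0.47 and -0.46) did not pass with RLE factors and that mean.

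No paired analysis was possible because the groups share no replicate numbers and the labels do not tie pools to total RNA libraries. Depth limits Il21 and Sostdc1 most, and a fit with 1 pool in a group assumes that it varies like the others.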
